A study of Mus musculus with 16 samples.

Results

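CD8 T cells in B78 melanomas were the 1804 cells that the authors annotated with that name, of 163343 cells from 16 tumors, and they fell into 2 of the authors' 39 clusters, numbers 24 and 33. B78 is a mouse melanoma line. Its cells, some carrying base-edited truncating mutations of the mitochondrial complex I gene mt-Nd5, were grown under the skin of immunocompetent male C57/BL6 mice, and live cells sorted from a fragment of each tumor were profiled by droplet single-cell RNA sequencing. The mutation was therefore in the implanted cancer cells and not in the T cells described here, which came from the host. The groups were mt.12436 80% (3 tumors), mt.12436 60% (3 tumors), mt.11944 60% (3 tumors) and WT (7 tumors), where the number names the edited position in the mitochondrial genome and the percentage is the labeled heteroplasmy, the share of mitochondrial genomes that carry the edit. All hosts were 8 to 11 weeks old.

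CD8 T cells are the cytotoxic arm of adaptive immunity. They recognize peptides on MHC class I through the T cell receptor and the coreceptor CD8, divide after activation, and kill target cells with perforin and granzymes such as granzyme B. In tumors they are studied as effector cells and as targets of checkpoint blockade, and their number relative to CD4 T cells, which include helper and regulatory cells, is a common summary of the lymphoid infiltrate.

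The deposited table held 1 line per cell and no gene expression, so the annotation could not be set against Cd8a, Cd8b1 or Gzmb, and what follows rests on the authors' name for these cells. Each of the 39 clusters carried 1 class name for all its cells. CD4 T cells, NK cells and a class called only T cells each had 1 cluster, and CD8 T cells had 2. Whether the annotation placed cells of another lymphocyte class in a CD8 T cell cluster was not tested. Tumors held 6371 to 13448 cells, with a median of 3130 to 7528 unique molecular identifiers (UMIs, the count of captured transcripts) per cell. The table gave 3 batches. The first held mt.11944 60% tumors 1 to 3 and WT tumors 1 to 3, the second mt.12436 60% tumors 1 to 3 and WT tumors 4, 5 and 7, and the third mt.12436 80% tumors 1 to 3 and WT tumor 6. The 80% tumors thus met a single WT tumor within their own batch. Of the CD8 T cells, 61 (3.38%) had a barcode that also occurred in another library, against 4.04% of all cells, and for 0 of them was the other cell a CD8 T cell.

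CD8 T cells made up a small part of every tumor. In the mt.12436 80% tumors they were 0.574%, 1.19% and 1.12% of all cells, from 61, 123 and 118 CD8 T cells. In the mt.12436 60% tumors they were 1.24%, 1.20% and 1.97%, from 130, 145 and 210 cells. In the mt.11944 60% tumors they were 1.55%, 0.915% and 0.583%, from 200, 123 and 54 cells. In WT tumors 1 to 7 they were 0.623%, 0.386%, 0.668%, 1.44%, 2.33%, 0.773% and 0.682%, from 49, 26, 80, 92, 256, 61 and 76 cells. The highest and the lowest share of the series were both in WT tumors, and every mutant group lay inside the WT range. Exact 95% Clopper-Pearson intervals, which cover counting error only, extended no more than 0.324 percentage points above or below a tumor's share.

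The study set all mutant tumors against WT to ask how the mutation alters the tumor microenvironment. CD8 T cells averaged 1.15% ± 0.441 of cells in mutant tumors (SD, n = 9) and 0.986% ± 0.676 in WT tumors (SD, n = 7), a difference of 0.162 percentage points (95% interval −0.445 to 0.737, exact two-sided permutation p = 0.572, adjusted p = 0.714 over 15 classes). A p above the threshold does not show that the groups were alike, and the interval is wide beside both means. With tumors permuted only within their batch the difference was 0.214 (exact p = 0.398). At 60% heteroplasmy the mean was 1.24% ± 0.483 (n = 6, exact p = 0.455 against WT), and at 80% it was 0.959% ± 0.335 (n = 3, exact p = 0.95 against WT and p = 0.369 against 60%). The mt.12436 60% tumors averaged 1.47% and the mt.11944 60% tumors 1.02% (exact p = 0.4, where 3 tumors against 3 cannot go below 0.1). In none of these comparisons did CD8 T cells have an unadjusted p under 0.05, beside 6.67% of the 15 classes in each of the first 4 and 0 in the last, and CD8 T cells overlapped in each (the classes that did not overlap were 6.67% for 80% against WT, 13.3% for 80% against 60% and 33.3% for mt.12436 60% against mt.11944 60%).

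**Figure D1:**
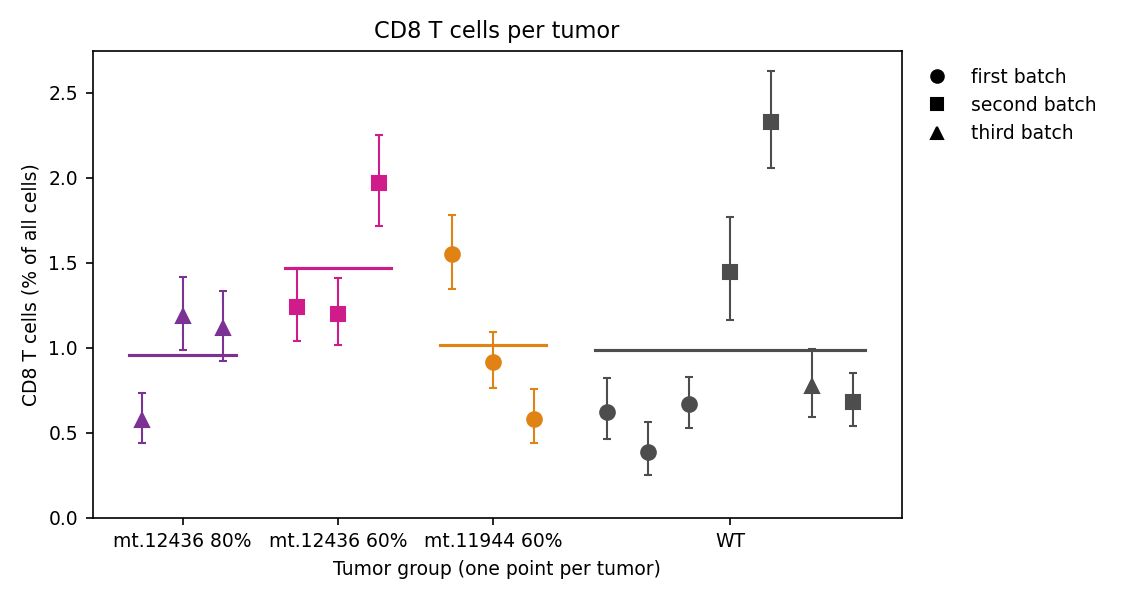
CD8 T cells as a percentage of all cells (y axis) in each tumor, by group (x axis). Points are tumors with exact 95% binomial intervals, shapes are batches and horizontal lines are group means. WT tumor 5, in the second batch, has the highest share at 2.33% and WT tumor 2, in the first, the lowest at 0.386%.

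Shares were also set out by batch, though batches were not tested against each other. In the first batch the shares averaged 1.02% ± 0.493 in mt.11944 60% tumors and 0.559% ± 0.152 in WT tumors (exact p = 0.3, 3 tumors each). In the second batch they averaged 1.47% ± 0.433 in mt.12436 60% tumors and 1.49% ± 0.824 in WT tumors (exact p = 1). In the third the mt.12436 80% tumors averaged 0.959% and the lone WT tumor had 0.773%. All 3 WT tumors of the second batch, at 0.682%, 1.44% and 2.33%, were above all 3 WT tumors of the first. The intervals of the closest, WT tumor 7 (0.538 to 0.853) and WT tumor 3 (0.530 to 0.831), overlapped almost wholly.

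The number of CD8 T cells per CD4 T cell was highest in the 80% tumors, although no ratio of CD8 T cells to another class passed the adjusted threshold. The mt.12436 80% tumors had 1.27, 1.64 and 1.64 CD8 T cells per CD4 T cell, the mt.12436 60% tumors 0.506, 0.545 and 0.709, and the mt.11944 60% tumors 0.615, 1.22 and 1.08. WT tumors 1 to 7 had 0.831, 0.703, 0.909, 0.876, 1.07, 0.462 and 0.466. Every 80% tumor was above every other tumor, but the interval of each 80% tumor overlapped those of several others. The intervals were 0.856 to 1.90, 1.22 to 2.22 and 1.21 to 2.23 in 80% tumors 1 to 3. Among those they overlapped were WT tumor 5 (0.891 to 1.28) and mt.11944 60% tumor 2 (0.928 to 1.60). The intervals of WT tumors 6 and 7 ended lower, at 0.631 and 0.616. WT tumor 6, the WT tumor of the third batch, had the lowest ratio of all 16.

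On the log2 scale the CD8 to CD4 ratio was 1.05 higher at 80% than in WT (95% interval 0.35 to 1.82), a 2.07-fold difference of geometric means, 1.51 in 80% tumors and 0.727 in WT tumors. The exact two-sided permutation p was 0.0167 with 3 tumors against 7, and the adjusted p over the 66 ratios between 12 classes was 0.22, so the difference did not pass the threshold of 0.05. Leaving out mt.12436 80% tumor 2 or 3 gave differences of 0.99 and exact p-values of 0.0556 with 2 tumors against 7. Against the 60% tumors the ratio was 1.03 higher at 80% (interval 0.18 to 1.78, exact p = 0.0238, adjusted p = 0.262). Within the third batch the 80% tumors were 1.70 above WT tumor 6, where 4 arrangements allow no p below 0.25. Between both heteroplasmies of the same edit, mt.12436, the ratio was 1.38 higher at 80% (exact p = 0.1, the smallest that 3 tumors against 3 can give), and those 2 groups were in different batches. Heteroplasmy and batch cannot be told apart in either comparison with the 60% tumors, nor in any comparison of 80% with 60% tumors below. All mutant tumors together were 0.36 above WT (interval −0.29 to 1.02, exact p = 0.243), and the 60% tumors were 0.02 above WT (interval −0.62 to 0.64, exact p = 0.949).

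**Figure D2:**
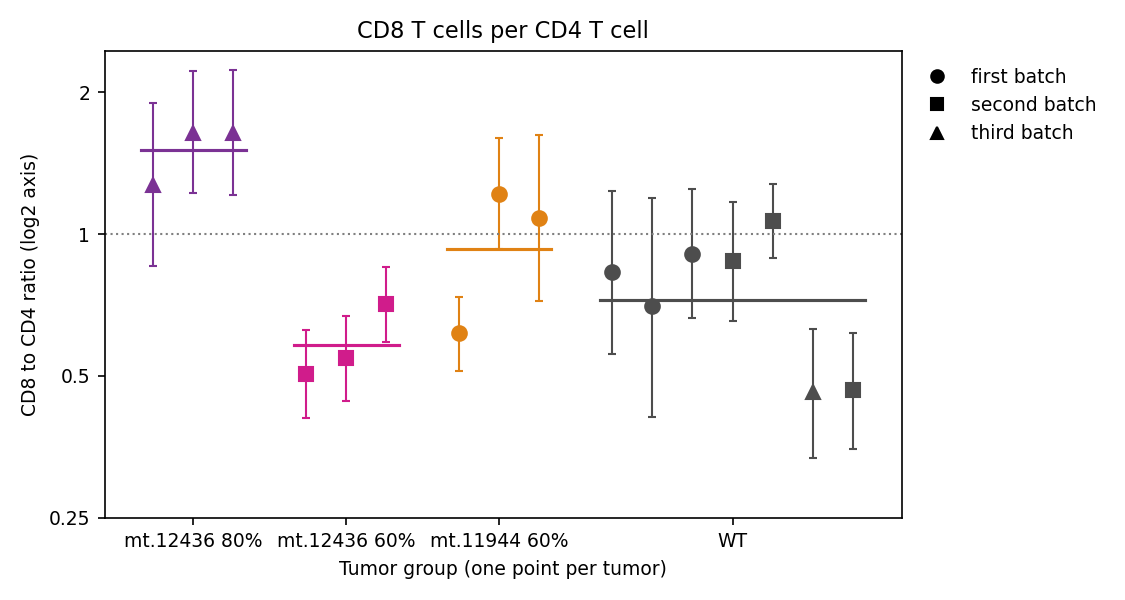
CD8 T cells per CD4 T cell (y axis, log2 scale) in each tumor, by group (x axis). Points carry intervals derived from exact 95% binomial limits, shapes are batches, horizontal lines are geometric means and the dotted line marks equal numbers. The mt.12436 80% tumors lie at 1.27 to 1.64 and the WT tumors at 0.462 to 1.07.

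NK cells, innate killers of cells that lack MHC class I, gave a ratio of like size. The 80% tumors had 0.897, 1.06 and 1.41 CD8 T cells per NK cell, and WT tumors had 0.292 to 0.742. The ratio was 2.14-fold higher at 80% than in WT by geometric means (log2 interval 0.24 to 1.98, exact p = 0.025, adjusted p = 0.22), and 2.29-fold higher than in 60% tumors (exact p = 0.0357, adjusted p = 0.262). Per cell of the class called only T cells, the 80% tumors had 1.69, 2.28 and 2.23 CD8 T cells, the 60% tumors 0.380 to 1.26 and WT tumors 0.494 to 2.23, and the groups at 80% and in WT overlapped (log2 difference 0.93, exact p = 0.1).

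Of the 11 ratios of CD8 T cells to another class, 2 did not overlap between 80% and WT tumors, those to CD4 T cells and NK cells, beside 7.58% of all 66 ratios. Between 80% and 60% tumors 3 of 11 did not overlap, beside 13.6% of all 66, and the third was the ratio to T cells. At an unadjusted exact p under 0.05, 3 of 11 differed between 80% and WT (15.2% of all 66) and 3 of 11 between 80% and 60% (18.2%). No ratio of CD8 T cells passed the adjusted threshold in any comparison, where 3.03% of the 66 ratios did so for 60% against WT and 0 in the others. The third ratio between 80% and WT was that to B cells, a class named here after its values were seen, which was 1.74 higher on the log2 scale in 80% tumors (exact p = 0.025, adjusted p = 0.22). Ratios within 1 tumor share the CD8 T cell count and are not independent.

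Among T and NK cells alone, CD8 T cells took a larger part in every 80% tumor than in any WT tumor. They were 28.6%, 33.4% and 36.1% of these cells in the mt.12436 80% tumors and 25%, 15.8%, 19.8%, 22.1%, 22.2%, 16.4% and 11.8% in WT tumors 1 to 7. The mean was 32.7% ± 3.77 at 80% (SD, n = 3) and 19.0% ± 4.57 in WT (SD, n = 7), a difference of 13.7 percentage points (interval 6.58 to 21.0). The exact permutation p was 0.00833, the smallest that 3 tumors against 7 can give, and 0.0333 after adjustment over the 4 classes of T and NK cells, which were chosen with earlier results known. Leaving out any of the 3 mt.12436 80% tumors ended the call, with differences of 12.03 to 15.8 points, an exact p of 0.0278, the smallest then possible, and an adjusted p of 0.111. Without any 1 WT tumor the adjusted p was 0.0476. In 60% tumors the share was 17.7% ± 5.73 (n = 6), and the 80% tumors were 15.1 points higher (exact p = 0.0119, adjusted p = 0.0317, and 0.0357 to 0.143 with each tumor left out). T cells and NK cells, both lower at 80%, also had p-values under 0.05 there (exact p = 0.0238 each), so 3 of the 4 classes (75%) did, and CD8 T cells and T cells (50%) did not overlap. The 80% and 60% tumors were in different batches, so heteroplasmy and batch cannot be told apart in that comparison. Within the third batch the 80% tumors were 16.4 points above WT tumor 6 (exact p = 0.25, the smallest possible). The shares of CD4 T cells, T cells and NK cells among these cells overlapped between 80% and WT, so 1 of the 4 classes (25%) did not overlap.

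**Figure D3:**
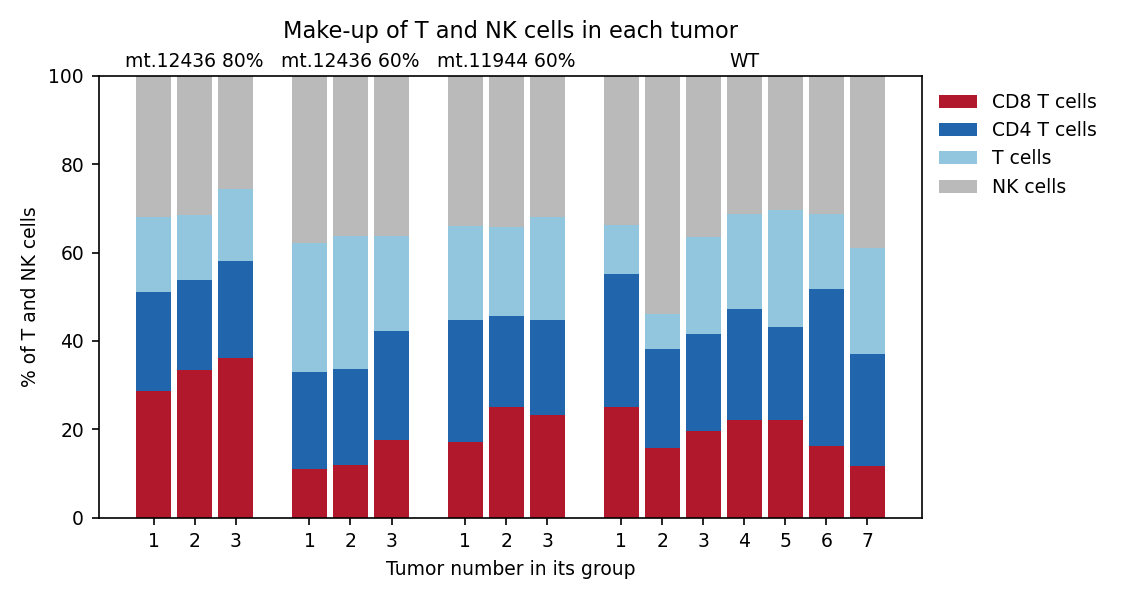
Make-up of the T and NK cells of each tumor (y axis, percent of these cells), with tumors numbered on the x axis and grouped from mt.12436 80% to WT. The CD8 T cell segment at the foot of each bar is 28.6% to 36.1% in the 80% tumors and 11.8% to 25% in WT tumors.

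As shares of all cells, CD8 T cells had like means at 80% and in WT (0.959% and 0.986%). CD4 T cells were 0.619% ± 0.146 of cells in 80% tumors and 1.29% ± 0.613 in WT tumors (exact p = 0.075). NK cells were 0.851% ± 0.245 in 80% tumors and 1.76% ± 0.789 in WT tumors (exact p = 0.0833). T cells were 0.454% ± 0.1 in 80% tumors and 1.08% ± 0.884 in WT tumors (exact p = 0.283). None of these 3 differences had an exact p under 0.05. By edgeR's quasi-likelihood test on cell numbers, scaled to all cells, which unlike the exact test pools the spread over classes, NK cells had p = 0.0412 (adjusted p = 0.124) and CD4 T cells p = 0.0581 (adjusted p = 0.145), and with TMM scaling p = 0.202 and p = 0.305. CD4 T cells had fewer genes detected than CD8 T cells in 16 of 16 tumors, and 18.8% to 26.4% of CD4 T cells in 80% tumors had under 600 genes, against 1.69% to 28.4% in WT tumors. With only cells of at least 600 genes the CD8 to CD4 ratio was 1.20 higher at 80% than in WT on the log2 scale, and with at least 1000 genes 1.36 higher. Of CD8 T cells in 80% tumors, 0% to 5.93% had under 600 genes. A gene floor thus removed a larger part of the CD4 T cells, and these values do not test the part of depth in the ratio.

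For all mutant tumors against WT, 2 of the 11 ratios of CD8 T cells had an unadjusted exact p under 0.05, a share near that of all 66 ratios (19.7%) and so no result about CD8 T cells. The first was the ratio to neutrophils, with geometric means of 0.384 in mutant and 0.116 in WT tumors (3.30-fold, exact p = 0.0103, adjusted p = 0.113). The other was the ratio to B cells, with geometric means of 5.25 in mutant and 2.33 in WT tumors (2.26-fold, exact p = 0.0139, adjusted p = 0.131). For 60% against WT, whose tumors are part of the same mutant set, the count was again 2 of 11 and near that of all 66 ratios (16.7%). Mutant and WT tumors overlapped in both ratios, and neither passed the adjusted threshold. Neutrophils were 1.23% to 7.15% of cells in mutant tumors and 1.58% to 14.7% in WT tumors. Mutant and WT tumors overlapped in this share and in the CD8 T cell share, and the part of each in the ratio was not tested.

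Across the 16 tumors the CD8 T cell share was correlated with those of CD4 T cells, T cells, NK cells and dendritic cells, but the relation with B cells did not pass the test (r = 0.406, permutation p = 0.117, adjusted p = 0.184, rho = 0.5, r = 0.343 without WT tumors 2 and 5, 0.182 and −0.155 within the first and second batch). Their log2 share was correlated with that of CD4 T cells (r = 0.757, permutation p = 0.00083, adjusted p = 0.00304 over 11 classes, rho = 0.815), and r was 0.721 without WT tumors 2 and 5, the farthest from the median. With T cells r was 0.787 (permutation p = 0.00035, adjusted p = 0.00304, rho = 0.791), and 0.682 without those tumors. With dendritic cells, which prime CD8 T cells by cross-presentation, r was 0.751 (permutation p = 0.00077, adjusted p = 0.00304, rho = 0.818), and with NK cells 0.679 (permutation p = 0.00411, adjusted p = 0.0113, rho = 0.703). Without WT tumors 2 and 5 these were 0.822 and 0.713.

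Within batches the same signs were found at different strengths. In the first batch (6 tumors) r was 0.896 with CD4 T cells, 0.916 with T cells, 0.724 with dendritic cells and 0.713 with NK cells, and in the second (6 tumors) it was 0.650, 0.452, 0.363 and 0.393 for the same classes in that order. The third batch, with 4 tumors, was too small. The share of cancer cells went the other way (r = −0.643, permutation p = 0.00768, adjusted p = 0.0169, rho = −0.700, r = −0.650 without WT tumors 2 and 5, −0.506 and −0.725 within the first and second batch). The share of neutrophils showed no relation over the 16 tumors (r = 0.0128, permutation p = 0.962, adjusted p = 0.962, rho = 0.00294, r = −0.145 without those tumors, −0.520 and 0.0736 within the first and second batch). The relation with macrophages did not pass the test (r = −0.375, permutation p = 0.152, adjusted p = 0.209, rho = −0.412, r = −0.210 without the same tumors, −0.789 and −0.224 within the first and second batch). The relation with monocytes passed by rho (0.576, permutation p = 0.0213, adjusted p = 0.0391) but not by r (0.456, permutation p = 0.0756, adjusted p = 0.139). For monocytes r was 0.539 without WT tumors 2 and 5, and 0.423 and 0.240 within the first and second batch. Shares of 1 whole are tied to each other, and cancer cells were 18.9% to 56.7% of a tumor.

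The 2 clusters divided CD8 T cells by cell cycle scores. The table gives an S score and a G2M score, averages over genes of DNA replication and of mitosis set against control genes, and a phase, which was the phase of the larger positive score in 1804 of 1804 CD8 T cells. Cluster 33 held 560 cells, 200 called S, 360 called G2M and 0 called G1, with a median S score of 0.385 and a median G2M score of 0.584. Cluster 24 held 1244 cells, 489 called S, 308 called G2M and 447 called G1, and its medians were −0.00530 and −0.0196. The difference recurred in each library. Cluster 33 had the higher median of both scores, of UMIs and of genes in 16 of 16 tumors, with medians over its cells of 4494.5 UMIs and 2105 genes, against 2498 UMIs and 1367 genes in cluster 24. As clusters were made from expression, these values describe them and test nothing.

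**Figure D4:**
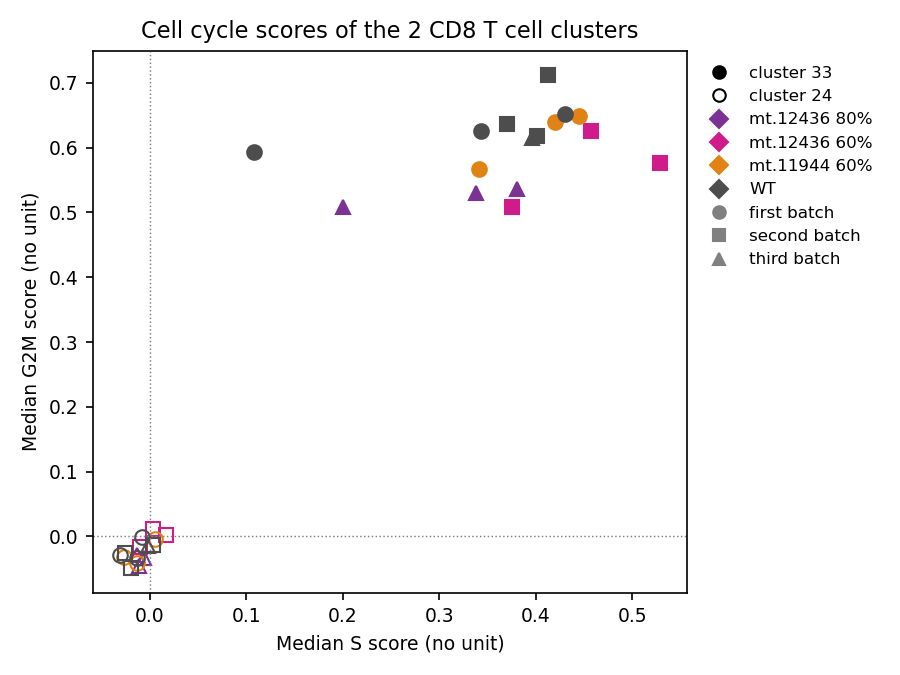
Median S score (x axis, no unit) against median G2M score (y axis, no unit) of CD8 T cells in each tumor, filled for cluster 33 and open for cluster 24, colored by group and shaped by batch. Cluster 33 lies at G2M medians of 0.508 to 0.712 and cluster 24 at −0.0491 to 0.0117.

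High scores were mostly in cluster 33. A score above 0.2, a limit chosen after the values were seen, was found in 558 of 560 cells of cluster 33 and in 99 of 1244 cells (7.96%) of cluster 24. Over all CD8 T cells 36.4% exceeded it, beside 2.64% of CD4 T cells, 4.58% of T cells and 3.70% of NK cells. Of the 657 CD8 T cells above the limit, 558 were in cluster 33. Whether that cluster took in dividing cells of the other lymphocyte classes was not tested. By the phase call alone the gap was smaller, 75.2% of CD8 T cells in S or G2M against 60.2% of CD4 T cells, 58.8% of T cells and 57.4% of NK cells, and 64.1% in cluster 24. Among the 15 classes only basophils, with 22 cells, had a higher share, 81.8%.

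The share in S or G2M was higher in CD8 T cells than in CD4 T cells, T cells and NK cells in 16 of 16 tumors for each class. CD8 T cells also had more UMIs per cell, with a higher median than CD4 T cells and NK cells in 16 of 16 tumors and than T cells in 15. Among cells of 1000 to 4000 UMIs (1199 CD8 T cells, at least 17 per tumor) 69.4% of CD8 T cells were called S or G2M, against 59.6% of CD4 T cells, 58.3% of T cells and 57.4% of NK cells. In that window 24.2% of CD8 T cells and 1.94% to 2.65% of the other 3 classes had a score above 0.2, and CD8 T cells were higher in 16 of 16 tumors against each. Cluster 24 alone had 62.1% of its cells in S or G2M there and 6.30% above 0.2. Its share in S or G2M was above that of CD4 T cells, T cells and NK cells in 13, 15 and 14 of 16 tumors. For a score above 0.2 it was higher in 15, 12 and 15. Cells could not be thinned to 1 depth without expression. Classes were named from clusters of expression, so these comparisons between classes describe them and test nothing. None of the other 3 classes had a cluster free of G1 cells, but each had only 1 cluster. The only other such clusters in the table, numbers 14 and 27, were of cancer cells. Some clusters came close. Macrophage cluster 18 had 1 G1 cell among 3355, cancer cell cluster 16 had 0.367% in G1 and macrophage cluster 25 had 1.92%.

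The part of the CD8 T cells that lay in cluster 33 did not separate the groups. It was 41.0%, 30.1% and 23.7% of CD8 T cells in the mt.12436 80% tumors, 43.1%, 29.0% and 35.7% in the mt.12436 60% tumors and 29.0%, 27.6% and 24.1% in the mt.11944 60% tumors. In WT tumors 1 to 7 it was 22.4%, 38.5%, 30.0%, 32.6%, 28.1%, 34.4% and 31.6%. The mean was 31.5% ± 6.95 in mutant tumors (n = 9) and 31.1% ± 5.04 in WT tumors (n = 7), a difference of 0.381 points (interval −6.40 to 7.19, exact permutation p = 0.904). At 80% the difference from WT was 0.505 points (interval −8.77 to 9.83, exact p = 0.908). The mt.12436 60% tumors had 35.9% and the mt.11944 60% tumors 26.9% (exact p = 0.2). As a share of all cells, cluster 24 was 0.784% in mutant and 0.687% in WT tumors (exact p = 0.637) and cluster 33 was 0.365% in mutant and 0.299% in WT tumors (exact p = 0.481).

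The CD8 to CD4 ratio was also taken with cluster 24 alone, an alternative added after seeing the data. The 80% tumors had 0.75, 1.15 and 1.25 cells of cluster 24 per CD4 T cell and WT tumors had 0.303 to 0.767. The log2 difference was 1.04 (interval 0.21 to 1.95, exact p = 0.025, adjusted p = 0.244), and 80% tumor 1 then fell within the WT range. Cluster 24 made up 25.1% ± 5.53 of the T and NK cells outside cluster 33 in 80% tumors and 14.1% ± 4.25 in WT tumors (exact p = 0.0167), and here too the groups overlapped, with 19.1% in 80% tumor 1 and 20.5% in WT tumor 1.

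Phase calls did not separate the groups. CD8 T cells called S or G2M were 73.8%, 65.9% and 72.9% in the mt.12436 80% tumors, 86.9%, 84.1% and 75.2% in the mt.12436 60% tumors and 79.0%, 68.3% and 61.1% in the mt.11944 60% tumors. In WT tumors 1 to 7 they were 59.2%, 88.5%, 63.8%, 70.7%, 81.3%, 78.7% and 69.7%. Mutant tumors averaged 74.1% ± 8.39 (n = 9) and WT tumors 73.1% ± 10.3 (n = 7), with an exact permutation p of 0.825 and an interval of −9.01 to 11.0 points. The mean S score was 0.128 ± 0.0445 in mutant and 0.122 ± 0.0454 in WT tumors (exact p = 0.812), and the mean G2M score was 0.172 ± 0.0547 in mutant and 0.176 ± 0.0470 in WT tumors (exact p = 0.878).

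The phase composition had its own extremes. S was the smallest phase in WT tumor 3, with 15 of 80 cells (18.8%), against 32.6% to 42.6% in the other 15 tumors. G1 was 11.5% in WT tumor 2, from 3 of 26 cells, and 13.1% in mt.12436 60% tumor 1, against 40.8% in WT tumor 1. At 60% the mt.12436 tumors had higher mean S scores (0.140 to 0.223) than the mt.11944 tumors (0.0947 to 0.132), and higher mean G2M scores (0.188 to 0.273, against 0.106 to 0.178). Those 2 measures and the ribosomal share did not overlap, 3 of 10 measures beside 17.5% of the 120 pairs of class and measure (exact p = 0.1 each, the smallest possible), and mutation and batch cannot be told apart there.

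Depth moved with the phase call. Across 16 tumors the share in S or G2M was correlated with the median UMIs of the CD8 T cells (r = 0.649, permutation p = 0.00668, adjusted p = 0.0267 over 4 relations, rho = 0.735). Without mt.11944 60% tumor 1 and WT tumor 3 r was 0.635, and it was 0.616 within the first batch and 0.566 within the second. Within cluster 24, 55.7% of cells with 740 to 1951 UMIs were called S or G2M, 63.3% of those with 1964 to 3203 and 73.3% of those with 3205 to 10629. A score above 0.2 was found in 2.89%, 6.52% and 14.5% of the same cells. The share of cluster 33 among CD8 T cells had r = 0.431 with the median UMIs (permutation p = 0.0957, adjusted p = 0.191, rho = 0.524, r = 0.639 without the same 2 tumors, 0.195 and 0.493 within the first and second batch).

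**Figure D5:**
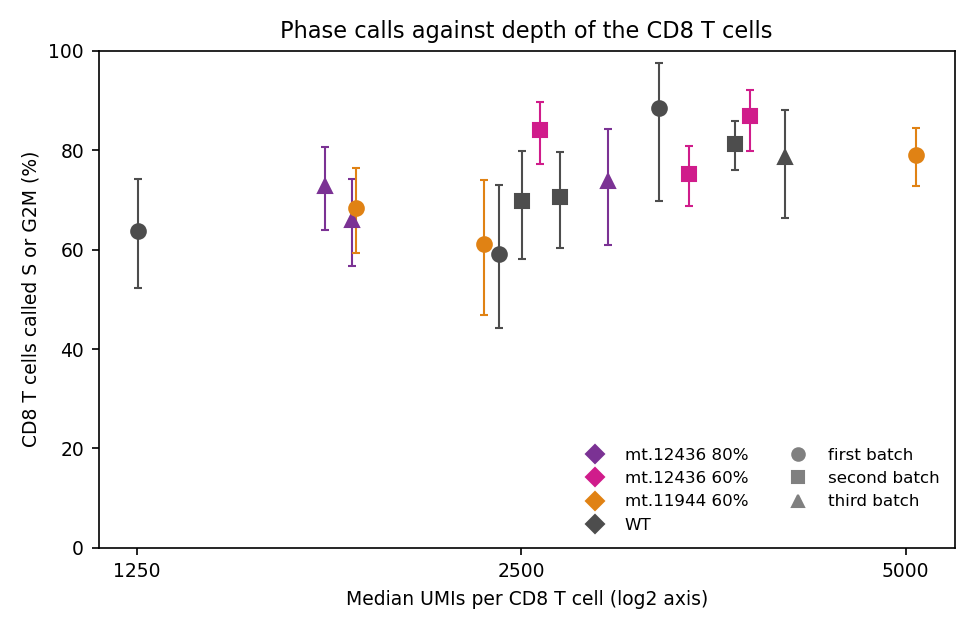
Share of CD8 T cells called S or G2M (y axis, percent) against the median UMIs per CD8 T cell (x axis, log2 scale), 1 point per tumor with exact 95% binomial intervals, colored by group and shaped by batch. Tumors with deeper CD8 T cells sit higher (r = 0.649), and the groups are intermixed.

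Other measures of the CD8 T cells separated the 80% tumors from the rest in 2 of 10 cases. The median share of mitochondrial UMIs was 0.593%, 0.604% and 0.557% in the mt.12436 80% tumors and 1.00%, 0.921%, 0.696%, 0.855%, 0.817%, 0.741% and 0.822% in WT tumors 1 to 7. Every 80% tumor was below every WT tumor, with a mean of 0.585% ± 0.0241 at 80% and 0.836% ± 0.103 in WT, a difference of −0.251 points (interval −0.396 to −0.111). The exact permutation p was 0.00833, the smallest possible, and the adjusted p 0.3 over 120 pairs of class and measure. In 6 of the other 11 classes the 80% tumors were likewise wholly below WT. The 60% tumors averaged 0.851%, and the 80% tumors were wholly below them too (exact p = 0.0119, adjusted p = 0.143). WT tumor 6, of the same batch as the 80% tumors, had the second-lowest WT value.

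The median share of UMIs from dissociation-related genes was 2.64% ± 0.0541 in 80% tumors, 2.94% ± 0.0768 in 60% tumors and 2.84% ± 0.136 in WT tumors (exact p = 0.0333 and adjusted p = 0.364 for 80% against WT, exact p = 0.0119 and adjusted p = 0.143 for 80% against 60%). These 2 measures did not overlap in either comparison, beside 6.67% of the 120 pairs for 80% against WT and 12.5% for 80% against 60%. The median ribosomal share was 16.98% ± 0.486 in mt.12436 60% tumors and 20.8% ± 1.54 in mt.11944 60% tumors, lower in mt.12436 60% as in all 11 other classes. WT tumors of the second batch had 17.5%, 18.7% and 18.2% and those of the first 23.95%, 21.9% and 21.5%. The mt.12436 60% tumors were wholly below the WT tumors of their own batch (exact p = 0.1, the smallest possible), and for 60% against WT within batches the exact permutation p was 0.045 and the adjusted p 0.6. The part of the batch in these values was not tested.

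Median UMIs and genes per CD8 T cell did not separate the groups. They were 2839 ± 1103 UMIs in mutant tumors and 2821 ± 921 in WT tumors (exact p = 0.973), and 1477 ± 416 genes in mutant tumors and 1465 ± 358 in WT tumors (exact p = 0.953). The extremes were mt.11944 60% tumor 1, with 5094 UMIs, and WT tumor 3, with 1252.

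The doublet score, an estimate of how closely a droplet resembles 2 cells, was low in nearly all CD8 T cells, with a median of 0.000141. The mean per tumor was higher in mutant tumors, 0.0104 ± 0.00481 (n = 9), than in WT tumors, 0.00287 ± 0.00323 (n = 7). The exact permutation p was 0.0035 and the adjusted p 0.42, 1 of 10 measures beside 2.5% of the 120 pairs with an unadjusted p under 0.05, and within batches the exact p was 0.00125 (adjusted p = 0.15). Set against WT, the 60% tumors alone had 0.0123 ± 0.00457 (exact p = 0.00233, adjusted p = 0.28), again 1 of 10 measures beside 3.33% of the pairs. Mutant tumors held 9262 to 13448 cells and WT tumors 6371 to 11978, and whether the number of cells bears on the score was not tested. The mean doublet scores rest on few cells. The medians per tumor differed by −3.84e-05, and 31 CD8 T cells were in the top 5% of the score over all cells, 4 in mt.12436 80%, 14 in mt.12436 60%, 7 in mt.11944 60% and 6 in WT tumors. With that top 5% removed, the means differed by 0.00268 (exact p = 0.0272).

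Measures that bear on other cells were looked at as well. The epithelial score, an average over keratin and related genes, was above 0 in 16.2% of CD8 T cells and did not separate mutant tumors, at 0.759 ± 0.440, from WT tumors, at 0.984 ± 0.473 (exact p = 0.349). A copy number caller named 6 CD8 T cells (0.333%) aneuploid, the call given to cancer cells, 3 of them in mt.12436 80% tumor 3 and 1 each in 80% tumor 2, mt.12436 60% tumor 2 and WT tumor 1. Per the study's methods, T and NK cells served as the caller's diploid reference. A low count in CD8 T cells was therefore favored in advance and tests nothing. With all aneuploid-called cells removed, the CD8 to CD4 log2 ratio at 80% was 1.05 above WT, and with high doublet scores removed it was 1.02 above WT.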

How the data were processed

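The deposited table of cells was used, 1 line per cell with no expression values. Per the labels and the study's methods, live cells from fragments of tumors were run on the 10x Genomics 3′ kit, and the authors used Cell Ranger and Seurat to align, filter, cluster and name them. Of the deposited values, UMI and gene numbers are counts per cell without normalization. The authors also computed percent values (the part of a cell's UMIs in mitochondrial, ribosomal or dissociation genes), and the doublet, S, G2M and epithelial scores, whose scales are known here only from their values. Cells in the table have at least 501 genes, at most 36985 UMIs and under 5% mitochondrial UMIs, and 0 are called doublets. The p-values here are computed from tumors and none was deposited by the authors.

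CD8 T cells were taken by the authors' annotation. The members and the classes described were chosen with earlier results of these data known. Groups were read from GEO's labels, and the table's own group column matched in 16 of 16 tumors. Tumors were the replicates. Whether tumors of a group came from separate cultures of the injected line is not given in the sources used here, so p-values measure the spread between these tumors. Each comparison used an exact two-sided permutation test of the difference of group means, with 11440 splits for 9 against 7 tumors, 1716 for 6 against 7, 120 for 3 against 7, 84 for 3 against 6 and 20 for 3 against 3. Test inversion gave the intervals. Benjamini-Hochberg adjustment ran over 15 class shares, 39 cluster shares, 66 log2 ratios of 12 classes (no tumor under 5 cells), or 120 pairs of those classes with 10 measures, and over 4 classes for shares of T and NK cells. The classes named were those of T and NK cells, dendritic cells, neutrophils, macrophages and cancer cells. B cells, basophils and monocytes were added after their values were seen. Correlations over tumors used 100000 permutations. The test scripts were checked on simulated data. Python 3.11.15, numpy 2.4.6, scipy 1.17.1, pandas 2.3.3, matplotlib 3.10.9 and, for alternatives on cell numbers, edgeR 4.0.16 in R 4.3.3 were used. Other alternatives changed the denominator, scale, statistic or filter on cells, left out each tumor, permuted within batches, or blocked by tumor number. The alternatives that used 600 genes, a score above 0.2, removal of high doublet scores from the other measures, the first 2 batches, or cluster 24 alone were added after seeing the data.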

Additional observations from a re-analysis of the deposited data

Results flagged for a closer look

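Of 39 sets of tumors and CD8 T cell measures, 3 had a tumor far from the others of its group. A limit of this kind marks about 1 set in 20 by chance, and the cause was not tested. The mean doublet score of the CD8 T cells in WT tumor 5 was 0.00987, against 0.000368 to 0.00352 in the other 6 WT tumors, and that tumor also had the most CD8 T cells, 256. The mean epithelial score of the CD8 T cells in mt.11944 60% tumor 1 was 1.87, the highest both among the 60% tumors and among all mutant tumors, where the others had 0.363 to 0.788. In that tumor 38.5% of CD8 T cells had an epithelial score above 0, and its CD8 T cells had the highest median UMIs, 5094.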

How the results depend on the processing

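Of 725 alternative values, 636 kept their direction and their side of the adjusted threshold of 0.05 and 89 changed sign, and the cause of a change of sign was not tested. These values belong to comparisons of groups, and the correlations over tumors were not among them. No such comparison as reported passed the adjusted threshold in its own family of tests. Among the changes of sign 2 alternatives did, both also described above. They were the share of T and NK cells for 80% against WT (adjusted p = 0.0333) and for 80% against 60% (adjusted p = 0.0317), both by permutation over tumors and adjusted over 4 classes. For 80% against WT the CD8 T cell share, with −0.0274 points as reported, was 0.434 by medians, 0.186 within batches, 0.363 of non-malignant cells, 0.325 of immune cells, 13.7 of T and NK cells, 0.12 as a log2 share, 0.00161 on the arcsine scale, 0.367 without aneuploid-called cells and 0.61 in log2 by edgeR with TMM scaling. For 80% against 60% it was 15.1 of T and NK cells, 0.0304 without aneuploid-called cells and 0.10 by TMM, for 60% against WT −1.35 of T and NK cells, and for mt.12436 60% against mt.11944 60% −8.32 of T and NK cells and −0.0573 by TMM. The log2 CD8 to CD4 ratio for 60% against WT, 0.02 as reported, was −0.33 by medians, −0.0910 within batches, −0.24 over CD4 T cells plus T cells, −0.0203 with at least 1000 genes, −0.0276 with at least 600 genes and −0.0258 without high doublet scores.

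Cluster 24 as a share of all cells for 80% against WT was 0.347 by medians, 0.167 within batches and 0.11 in log2, and for 80% against 60% 0.0503 by medians. Cluster 33 for 80% against WT was 0.0494, 0.0196 and 0.12 under those same 3 settings. The part of cluster 33 among CD8 T cells was −2.58 by medians and −3.74 with at least 1000 genes for all mutant against WT, −2.60 and −6.08 for 60% against WT, and −1.50 by medians and −2.83 within batches for 80% against WT. The share in S or G2M for all mutant against WT was −1.93 with at least 1000 genes, −1.75 for G2M only and −0.298 for a score above 0.2, and for 60% against WT −1.96 with at least 1000 genes and −0.876 for a score above 0.2. For 80% against WT it was 2.23 by medians, 3.31 for S only, 0.898 in the UMI window and 0.860 for a score above 0.2, and for 80% against 60% 0.0996 with at least 1000 genes, 0.782 for S only and 1.74 for a score above 0.2. The doublet score by medians was −3.84e-05 for all mutant against WT and −6.41e-06 for 60% against WT.

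With each tumor left out in turn, signs changed in these ranges. For 80% against WT the CD8 T cell share gave −0.141 to 0.196, cluster 24 −0.103 to 0.154, cluster 33 −0.0494 to 0.0455, its part of CD8 T cells −4.19 to 4.44 and the share in S or G2M −4.59 to 0.292. For 80% against 60% cluster 24 gave −0.254 to 0.00202 and the part of cluster 33 −4.51 to 4.12. For 60% against WT the CD8 to CD4 ratio gave −0.13 to 0.13 and the part of cluster 33 −2.01 to 1.79. For all mutant against WT the part of cluster 33 gave −1.07 to 1.61 and the share in S or G2M −1.29 to 3.59. For 80% against WT the CD8 to CD4 log2 ratio kept its sign, at 0.94 to 1.17.

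The labels number tumors 1 to 3 in every group, but same-numbered tumors did not deviate together (median r −0.121 over 18 pairs, 4 of them over 0.1, against 0.194 for different numbers). A replicate block used only tumors numbered 1 to 3, which left out the WT tumors of higher number. The WT tumors that remained were all of the first batch, so these values change the reference as well as the blocking. With this block the CD8 T cell share was 0.590 for all mutant against WT (exact p = 0.141) and 0.400 for 80% against WT. The CD8 to CD4 log2 ratio was 0.90 for 80% against WT (exact p = 0.25, the smallest possible) and −0.14 for 60% against WT. Cluster 24 was 0.277, cluster 33 0.123 and the share in S or G2M 0.370 for 80% against WT. The block changed no call at the adjusted threshold. Cell numbers limit these results, with 26 to 256 CD8 T cells a tumor, and the phase calls also moved with UMIs per cell.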

Other observations

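Cluster 33 varied in score as well as in size. Its median S score was lowest in WT tumor 3, at 0.108, and highest in mt.12436 60% tumor 1, at 0.529, while its median G2M score was 0.593 in the first of these and 0.577 in the second. In WT tumor 3, 91.7% of the cells of cluster 33 were called G2M. Those cells also had the lowest median UMIs of cluster 33, 1654.5. WT tumors 1 and 2 had 2.23 and 2.00 CD8 T cells per cell of the class called only T cells, and the other 5 WT tumors 0.494 to 1.02.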
